A study of Mus musculus with 11 samples.

Results

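The genes of 8 SR splicing factors, Srsf1, Srsf2, Srsf3, Srsf5, Srsf6, Srsf7, Tra2a and Tra2b, were examined for HIV integration sites in mouse embryonic fibroblasts. All 8 were taken by name, and each was read as its annotated mm9 gene model with 5 kb on each side, here called its window. The windows held 733 distinct sites of 831994 in the series, which is 0.0881% of the sites in 0.00605% of the genome length. All 8 genes averaged 3 or more sites in a library and entered the fit across genes.

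SR proteins bind pre-mRNA through RNA recognition motifs and recruit the spliceosome through a domain rich in arginine and serine. Their genes are known for controlling their own output: alternative exons that carry premature stop codons, several of them ultraconserved, send a share of the transcripts to nonsense-mediated decay. Of the 44 transcripts annotated for the 8 genes, 7 were of the nonsense-mediated decay type and 11 were retained introns.

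The sites come from HIT-seq, in which a nuclear protein is fused to the integrase-binding domain (IBD) of LEDGF, the host protein that normally guides HIV integrase to chromatin, so that the virus integrates where the fused protein sits. The cells were C57BL/6 LEDGF-/- MEF, electroporated with a plasmid for 1 fusion protein and then infected with HIV. Each of 11 fusion proteins gave 1 library: NELFA, NELFB, NELFCD and NELFE of the NELF complex, which holds RNA polymerase II near gene starts; SPT5, which binds the elongating polymerase and acts with NELF in pausing; and INIP, INTS11, INTS3, INTS9, NABP1 and NABP2, placed here in the Integrator family, the complex that cleaves nascent RNA, together with the single-strand DNA binding proteins and INIP that join INTS3. All 11 libraries lacked LEDGF and all carried a fusion, and no library without a fused protein was analysed here. The subunits of a family stand in for replicates, so the spread given below is between different proteins. A plasmid introduced into the cells gives a level of the fusion protein that these data do not measure.

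Libraries held between 18753 (NELFE) and 197069 sites (INTS9), so that 1 site was worth 5.33 and 0.507 per 100000 sites. The 4 NELF libraries shared a flow cell that no other library used, according to the read names, and SPT5 was alone on another, so the family and the flow cell of these libraries cannot be told apart. Integration sites do not measure RNA, and neither the level of these genes nor the fibroblast identity could be checked by expression. Of 5 fibroblast genes, Vim, Col1a1, Col1a2 and Fn1 averaged 26.1, 14.3, 5.77 and 4.65 times the number of sites expected for uniform placement, and Col3a1 had 1.21 times.

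Stretches with many junctions are shown for 4 of the genes, near the gene start for Srsf2, Srsf7 and Srsf3 and in the gene body for Tra2b. Each is 300 bases of mm9, written in the direction of the gene, and capitals mark the bases at which HIV joined the genome in any of the 11 libraries. For Srsf2 (chr11:116714637-116714936, minus strand, from −528 to −229 bases relative to the gene start) the 11 sites came 5 from NELF libraries, 5 from SPT5 and 1 from an Integrator library. For Srsf7 (chr17:80606242-80606541, minus strand, 88 to 387 bases downstream of the start, mostly in the first intron) the 16 sites came 9 from NELF, 1 from SPT5 and 6 from Integrator. For Srsf3 (chr17:29169902-29170201, plus strand, 284 to 583 bases downstream) the 16 sites came 2 from NELF, 5 from SPT5 and 9 from Integrator. For Tra2b (chr16:22259617-22259916, minus strand, 6162 to 6461 bases into the gene) the 9 sites came 0 from NELF, 1 from SPT5 and 8 from Integrator. These counts are not scaled for depth, so they do not rank the families: 1 site was worth 3.32 per 100000 in NELFA and 0.531 in NABP1. In the Srsf3 stretch NELFA and NELFB had 1 site each, and NABP1 had 4 of the 9 Integrator sites. Only stretches without annotated UTR bases were considered, so the bases right after the Srsf2 start, where NELF junctions lay closer together, are not shown. Among those considered within each gene, the Srsf2 stretch held the most NELF sites and the other 3 the most sites over all libraries. They were chosen after the positions had been seen and by their counts, so the family split in them partly follows from the choice. Over all libraries the densest Srsf2 stretch, 1532 to 1831 bases downstream of the start, held 2 NELF, 4 SPT5 and 7 Integrator sites.
Srsf2: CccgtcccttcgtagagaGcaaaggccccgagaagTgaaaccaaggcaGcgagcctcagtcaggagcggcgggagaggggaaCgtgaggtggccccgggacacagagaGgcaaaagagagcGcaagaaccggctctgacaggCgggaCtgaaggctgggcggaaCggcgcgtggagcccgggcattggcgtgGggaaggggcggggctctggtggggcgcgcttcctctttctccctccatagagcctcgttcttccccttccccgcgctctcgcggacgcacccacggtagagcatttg
Srsf7: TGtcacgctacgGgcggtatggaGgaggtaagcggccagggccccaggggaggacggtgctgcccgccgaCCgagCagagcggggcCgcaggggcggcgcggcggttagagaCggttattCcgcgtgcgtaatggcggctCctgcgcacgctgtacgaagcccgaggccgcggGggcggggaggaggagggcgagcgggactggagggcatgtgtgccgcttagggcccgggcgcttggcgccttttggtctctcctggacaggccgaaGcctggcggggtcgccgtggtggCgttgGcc
Srsf3: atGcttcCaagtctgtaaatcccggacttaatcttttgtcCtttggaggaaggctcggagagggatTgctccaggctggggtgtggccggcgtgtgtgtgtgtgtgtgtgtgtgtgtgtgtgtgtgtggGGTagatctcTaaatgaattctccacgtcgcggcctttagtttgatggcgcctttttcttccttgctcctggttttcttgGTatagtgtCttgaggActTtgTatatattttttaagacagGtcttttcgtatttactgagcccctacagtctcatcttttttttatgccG
Tra2b: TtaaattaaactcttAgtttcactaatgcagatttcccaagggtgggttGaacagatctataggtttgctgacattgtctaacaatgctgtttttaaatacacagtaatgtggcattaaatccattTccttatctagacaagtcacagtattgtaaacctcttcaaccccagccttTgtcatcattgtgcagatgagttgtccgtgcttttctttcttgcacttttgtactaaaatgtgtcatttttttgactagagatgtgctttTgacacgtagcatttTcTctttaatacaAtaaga
GC content was 66.3% in the Srsf2 stretch and 72.7% in that of Srsf7, 46.3% in that of Srsf3 and 35% in that of Tra2b. The 2 kb around the 8 gene starts had a ratio of observed to expected CpG between 0.765 (Tra2a) and 0.979 (Srsf2), against a median of 0.468 over coding genes, and Srsf2 had a higher ratio than 99.5% of them.

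Over the 8 windows together, integration was densest in the SPT5 library. NELF libraries placed 79.0 ± 21.0 of every 100000 sites there (SD, n = 4), SPT5 placed 206 (95% exact Poisson interval 176 to 240), and Integrator libraries placed 68.8 ± 38.2 (n = 6). Relative to uniform placement these were 13.1 ± 3.47, 34.0 and 11.4 ± 6.32 times the expected number. For the median of the 7995 genes tested the same ratio was 2.81 ± 0.412 in NELF, 3.80 in SPT5 and 3.10 ± 0.986 in Integrator. The windows of these genes had a median of 47.4 kb, against 13.2 kb (Srsf2) to 31.5 kb (Tra2b) for the members. The 2 sets are thus unlike in length, and the part of length in the difference was not tested. The level is a description of genes chosen by name, and no test was made over them. By library, NELFA had 27 sites (89.7 per 100000), NELFB 29 (93.7), NELFCD 35 (84.8) and NELFE 9 (48.0). In the Integrator family the lowest was INTS9 with 64 sites (32.5 per 100000), the median was 64.8 and the highest was NABP2 with 103 sites (117). INIP, with 9 sites (36.1), and INTS11, with 12 (35.4), lay beside INTS9, while INTS3 and NABP1 had 93.4 and 98.7. The NELF and Integrator ranges overlapped. Without the sites that lay within 1 kb of another coding gene, which were 55% of the NELF sites, 34.9% of the SPT5 sites and 20.04% of the Integrator sites, the means were 35.3 ± 16.6 in NELF, 134 in SPT5 and 54.7 in Integrator, so the order of NELF and Integrator turned round. Intervals, those for counts of 0 included, cover counting error only, since junctions amplified by PCR are not independent molecules.

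**Figure D1:**
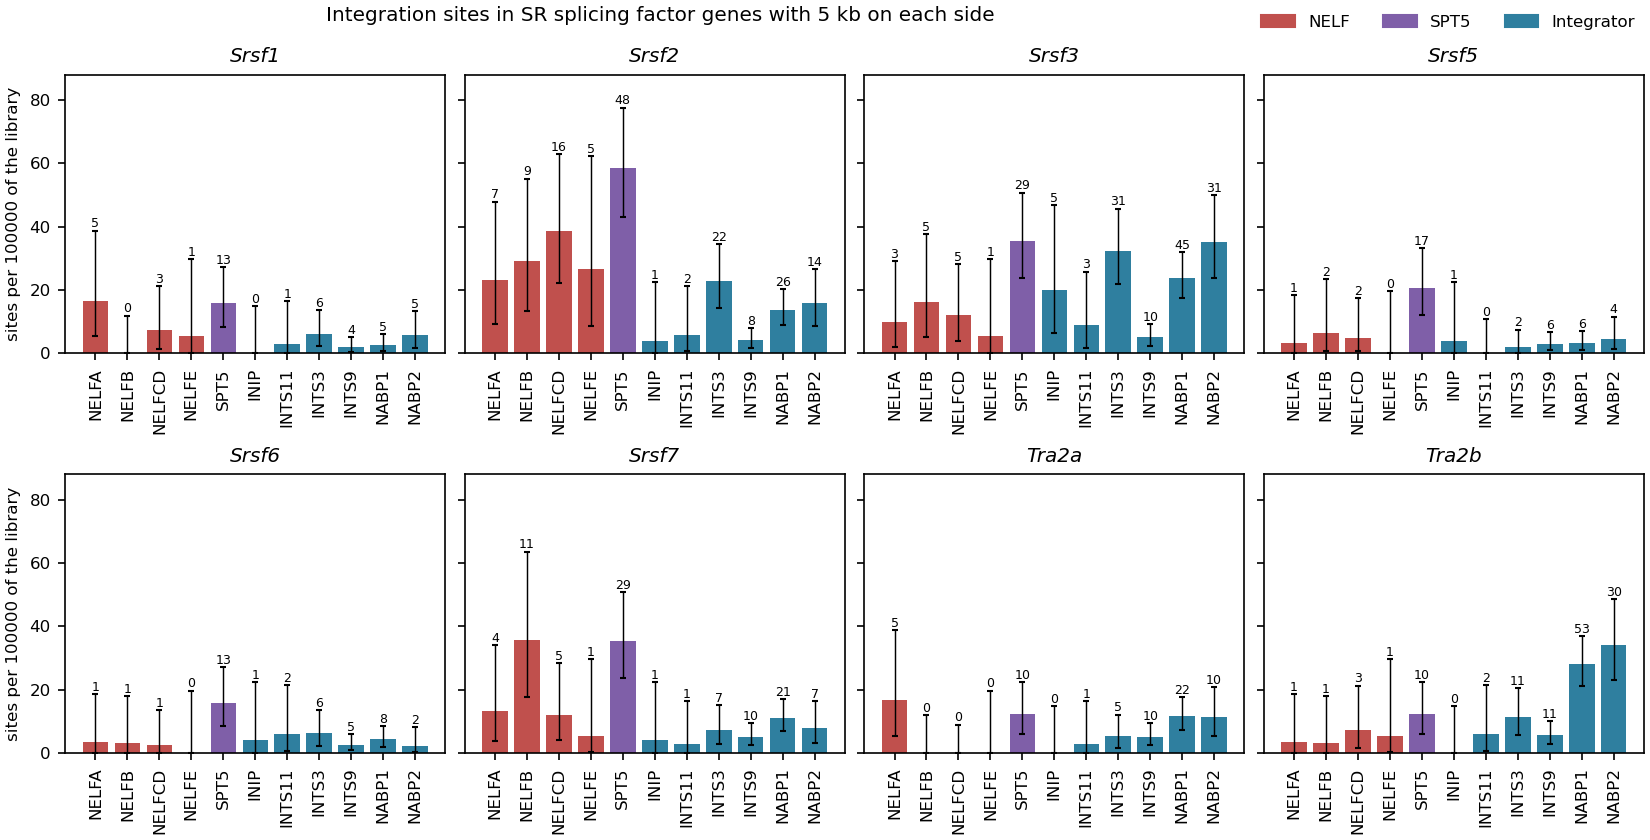
Distinct integration sites in the window of each SR splicing factor gene, per 100000 sites of the library (y axis), by fused protein (x axis; NELF red, SPT5 purple, Integrator blue). Bars are single libraries, lines are 95% exact Poisson intervals and the numbers are sites. Srsf2 is high in the 4 NELF libraries (23.2 to 38.8) and in SPT5 (58.5), and Tra2b is highest in NABP1 (28.1) and NABP2 (34.0).

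Of the classical SR proteins, Srsf2 codes for SC35, which binds exonic enhancers and also acts in the release of paused polymerase. Its gene (chromosome 11, 116711215 to 116714408, minus strand, 3.194 kb) had 23.2, 29.1, 38.8 and 26.7 sites per 100000 in NELFA, NELFB, NELFCD and NELFE, from 7, 9, 16 and 5 sites. SPT5 had 58.5 (48 sites, interval 43.1 to 77.6). The Integrator libraries ran from 4.01 in INIP over a median of 9.85 to 22.8 in INTS3. Every NELF library lay above every Integrator library, as at 4.03% of the genes tested, and SPT5 lay above all 10 others. The lowest NELF library, NELFA, lay above INTS3 by less than the worth of 1 site in either library. The fitted NELF minus Integrator difference was 1.57 (SE 0.458) on the log2 scale of sites per 100000 plus 1, with an adjusted p of 0.0970 (limma, Benjamini-Hochberg over 7995 genes), which missed the threshold of 0.05. Other settings put Srsf2 on the other side: the adjusted p was 0.0174 with voom weights, 0.0402 with columns centred on their median, 0.0480 with a minimum mean of 10 sites and 0.0444 without INTS3.

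Srsf2 is also the member with the most crowded surroundings. Mfsd11 starts 654 bases inside it on the opposite strand, and the coding gene 1110005A03Rik runs across it on that strand, so all 158 sites lay within 1 kb of another coding gene. Sites counted for Srsf2 therefore cannot be told apart from sites of these neighbours. Of the 158 proviruses, 79 pointed in the direction of Srsf2.

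Srsf7 codes for 9G8, which takes part in splicing, mRNA export and the choice of polyadenylation sites. Its gene (chromosome 17, 80599429 to 80606629, minus strand) had 13.3, 35.5, 12.1 and 5.33 sites per 100000 in NELFA, NELFB, NELFCD and NELFE, from 4, 11, 5 and 1 sites. SPT5 had 35.3 (29 sites). Integrator libraries ran from 2.95 in INTS11 over a median of 6.17 to 11.1 in NABP1, and overlapped NELF through NELFE alone. The fitted NELF minus Integrator difference was 1.06 (SE 0.512), with an adjusted p of 0.347 (limma). Ttc39d starts at −171 bases on the opposite strand, counted from the Srsf7 start, and 40 of the 97 sites lay within 1 kb of it or another coding gene.

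Srsf3, the smallest SR protein, acts in splicing and in the export and 3′ end choice of mRNA. It had the most sites of the 8, 168 in all. The gene (chromosome 17, 29169618 to 29180311, plus strand) had 9.96, 16.1, 12.1 and 5.33 sites per 100000 in NELFA, NELFB, NELFCD and NELFE. SPT5 had 35.3 (29 sites), and the Integrator libraries ran from 5.07 in INTS9 over a median of 22.0 to 35.1 in NABP2 (31 sites). SPT5 was the highest library by less than the worth of 1 site. The NELF minus Integrator difference was −0.71 (SE 0.490), with an adjusted p of 0.533 (limma). No other annotated gene reaches its window.

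Srsf1 codes for ASF/SF2, one of the first SR proteins described, and its gene (chromosome 11, 87860875 to 87867257, plus strand) had 43 sites. NELF libraries had 16.6, 0, 7.27 and 5.33 per 100000 (NELFA, NELFB, NELFCD, NELFE), SPT5 had 15.8, and the Integrator libraries ran from 0 in INIP over a median of 2.80 to 6.23 in INTS3. The 0 in NELFB allows up to 9.69 per 100000 (3 sites) and that in INIP up to 12.0, so neither is a sign that the gene was empty. The noncoding gene 2010015M23Rik starts at −13 bases on the opposite strand. Gm11508, a processed transcript, starts 633 bases inside Srsf1 on that strand and runs across the Srsf1 start.

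Srsf5 and Srsf6, which code for SRp40 and SRp55, had few sites per 100000 outside the SPT5 library. Srsf5 (chromosome 12, 82046491 to 82051494, plus strand) averaged 3.66 ± 2.75 sites per 100000 in NELF, 20.7 in SPT5 (17 sites, interval 12.1 to 33.2) and 2.81 ± 1.62 in Integrator. The highest of the 10 other libraries for Srsf5 was NELFB with 6.46. Srsf6 (chromosome 2, 162757264 to 162762857, plus strand) averaged 2.24 ± 1.55 in NELF, 15.8 in SPT5 (13 sites, interval 8.44 to 27.1) and 4.198 ± 1.64 in Integrator, and the highest other library was INTS3 with 6.23. NELF libraries held 5 sites at Srsf5 and 3 at Srsf6 in all.

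Tra2a and Tra2b code for the transformer-2 proteins, SR-like factors that bind GAA-rich exonic enhancers; they are the longest of the 8 genes, at 20.132 and 21.457 kb. Tra2b (chromosome 16, 22244622 to 22266078, minus strand) had 3.32, 3.23, 7.27 and 5.33 sites per 100000 in NELFA, NELFB, NELFCD and NELFE, from 1, 1, 3 and 1 sites, and SPT5 had 12.2 (10 sites). The Integrator libraries spread widely, from 0 in INIP over a median of 8.66 to 34.0 in NABP2. NABP1 had 53 sites (28.1 per 100000, interval 21.1 to 36.8) and NABP2 30 (34.0, interval 22.9 to 48.6), against 11 in INTS9 (5.58, interval 2.79 to 9.99), a library of like depth to NABP1. The family difference of −0.71 (SE 0.747) had an adjusted p of 0.709 (limma), with the Integrator spread of ± 13.7 close to the mean of 14.2. Tra2a (chromosome 6, 49193920 to 49214051, minus strand) had 5 sites in NELFA (16.6 per 100000) and 0 in NELFB, NELFCD and NELFE, 10 in SPT5 (12.2), and 0 to 11.7 per 100000 in Integrator, with NABP1 highest. Its NELF mean rests on NELFA alone, and the difference of −1.38 (SE 0.889; adjusted p = 0.499, limma) was −2.42 without that library.

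Across windows, none of the 8 genes passed for NELF against Integrator, where 126 of 7995 genes did (1.58%; 104 higher in NELF, 1.3%, and 22 lower, 0.275%). The fitted difference was above 0 for 4 members and below 0 for 4, with a median of −0.29, and the median of all genes tested was −0.08. For SPT5 against either family no gene of the 7995 passed (0%), although 549 reached an unadjusted p under 0.05 against Integrator and 252 against NELF; with voom weights 623 and 1 passed. The SPT5 minus Integrator difference had a median of 1.997 over the members and 0.39 over all genes tested, and the SPT5 minus NELF difference had medians of 1.66 and 0.48. Against Integrator it ran from 0.53 (SE 1.25) for Tra2b to 2.69 (SE 1.25) for Srsf5, with adjusted p-values of 0.990 and 0.721 (limma). SPT5 has 1 library, which the fit assumes to vary like the others, and the 3 comparisons share their libraries. With voom weights Srsf1, Srsf2, Srsf5 and Srsf7 passed for SPT5 against Integrator, with adjusted p-values (limma voom) of 0.0354, 0.00121, 0.00406 and 0.00519. SPT5 was the highest of the 11 libraries at 4 of the 8 genes, Srsf2, Srsf3, Srsf5 and Srsf6, where this held for 17.5% of all genes tested. Srsf5 had 17 sites in SPT5 against 5 in NELF and 19 in Integrator, and Srsf6 had 13 against 3 and 24. Without SPT5 neither gene averaged 3 sites in a library, so both entered the fit through SPT5. The lead of SPT5 at both genes, and the Srsf5 difference with its voom call, thus partly follow from the filter.

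**Figure D2:**
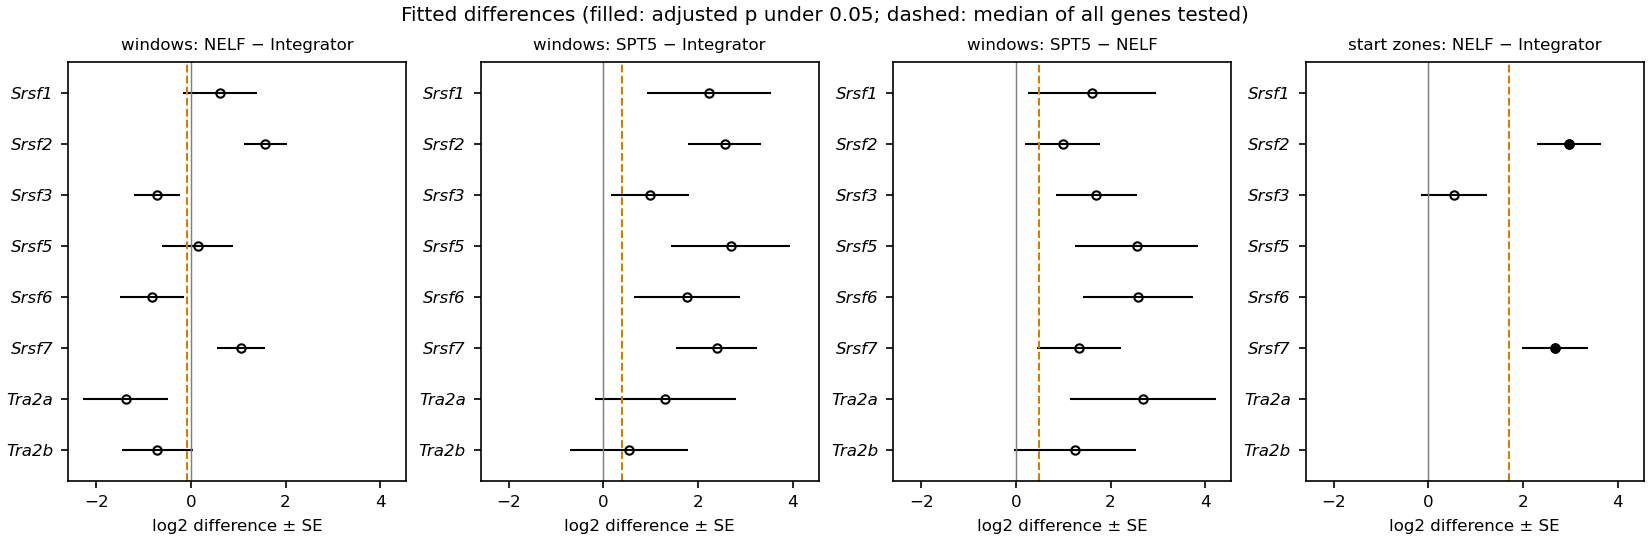
Fitted log2 differences of the SR genes (x axis, points with SE) between families, over windows in the first 3 panels and over the 2 kb around gene starts in the last. Filled points passed an adjusted p of 0.05 and dashed lines are the median of all genes tested. In the windows no point is filled; at the start Srsf2 (2.97) and Srsf7 (2.68) are, beside a median of 1.71 for all starts tested.

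Within the windows, the share of sites at the gene start was larger in NELF, and that in gene bodies was larger in Integrator. The windows were divided into upstream sequence (5 to 1 kb before the start), the start (1 kb on each side), the body, the end (1 kb on each side) and sequence 1 to 5 kb past the end. The start zone makes up 10.03% of the window length. It held 74.1%, 69.0%, 68.6% and 44.4% of the member sites of NELFA, NELFB, NELFCD and NELFE (20 of 27, 20 of 29, 24 of 35 and 4 of 9), or 64.0% ± 13.3 (SD, n = 4). In SPT5 it held 42.0% (71 of 169, 95% exact binomial interval 34.5 to 49.8). Integrator libraries ran from 9.71% (NABP2) to 22.2% (INIP, 2 of 9), with a mean of 17.0% ± 4.13 (n = 6). The NELF and Integrator libraries did not overlap.

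For comparison, 8656 other coding genes of like length, 3.194 to 21.457 kb, had 35.9% ± 6.22 of their window sites at the start in NELF, 32.3% in SPT5 and 16.4% ± 3.19 in Integrator. The share at the SR starts was higher than at these genes in each of the 4 NELF libraries, by 74.1% against 35.9% in NELFA and 44.4% against 27.2% in NELFE, the narrowest case. The interval of NELFE, 13.7 to 78.8%, covers its comparison value. Those of NELFA, NELFB and NELFCD, with lower ends of 53.7%, 49.2% and 50.7%, do not. These 4 intervals take each site as independent and cover counting error alone, so they are no test over genes. The sites cluster by gene: Srsf7 gave 10 of the 20 NELFB start sites, and Srsf2 gave 11 of the 24 in NELFCD. For single NELF libraries the intervals are given over all 8 genes only. In SPT5 the interval over all 8 genes lay above the comparison value, but it covered that value without Srsf5 (31.6 to 47.7%) or without Srsf6 (32.0 to 47.9%). In the Integrator family the means differed by less than the spread. Leaving out any 1 of the 8 genes left between 62.0% and 73.0% of the pooled NELF sites at starts. Without sites near another coding gene (chosen after seeing the data), the start held 51.6% in NELF, 41.8% in SPT5 and 16.3% in Integrator. Between the families this contrast at starts is not particular to the SR genes, as the comparison genes show it too. The comparison genes were taken by length alone, without regard to their activity, site numbers or CpG ratio. The SR starts had CpG ratios above those of 88.4% (Tra2a) to 99.5% (Srsf2) of coding genes. Whether other genes of like CpG ratio or activity have similar shares was not tested.

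Start by start, 3 members had enough sites for the fit. At the Srsf2 start NELFA, NELFB, NELFCD and NELFE had 13.3, 12.9, 26.7 and 16.0 sites per 100000, from 4, 4, 11 and 3 sites, SPT5 had 20.7, and the Integrator libraries had 0 to 2.95 with a median of 1.57. At the Srsf7 start the 4 NELF libraries had 13.3, 32.3, 9.69 and 5.33, SPT5 had 10.97, and the Integrator libraries had 0 to 3.18 with a median of 1.55. At the Srsf3 start they had 9.96, 12.9, 7.27 and 0, SPT5 had 17.1, and Integrator 0 to 8.03 with a median of 5.38. NELF and Integrator thus did not overlap at Srsf2 and Srsf7, as at 37.7% of the 390 starts tested, and overlapped at Srsf3.

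Srsf2 rose by 2.97 (SE 0.675, adjusted p = 0.00014) and Srsf7 by 2.68 (SE 0.703, adjusted p = 0.00088) in NELF relative to Integrator (limma, log2 scale), and Srsf3 had a difference of 0.55 (SE 0.695, adjusted p = 0.473). The filter asked for a mean of 3 sites over all 11 libraries, so a start could enter through NELF and SPT5 sites. The 6 Integrator libraries held 8 sites at the Srsf2 start and 12 at that of Srsf7, below that mean, and the 4 NELF libraries 22 and 19. The direction of the differences at the starts tested thus partly follows from the filter. With no filter on low values Srsf7 missed the threshold (adjusted p = 0.0509, limma). The background is high: 216 of the 390 starts passed (55.4%), all higher in NELF, and the median difference was 1.71. With each column centred on its median, Srsf2 and Srsf7 kept differences of 1.09 and 0.80 but passed no longer (adjusted p = 0.335 and 0.541, limma), Srsf3 turned to −1.33, and 11 starts passed, 4 higher and 7 lower in NELF. The other 5 members were below a mean of 3 start sites per library and were not tested there.

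**Figure D3:**
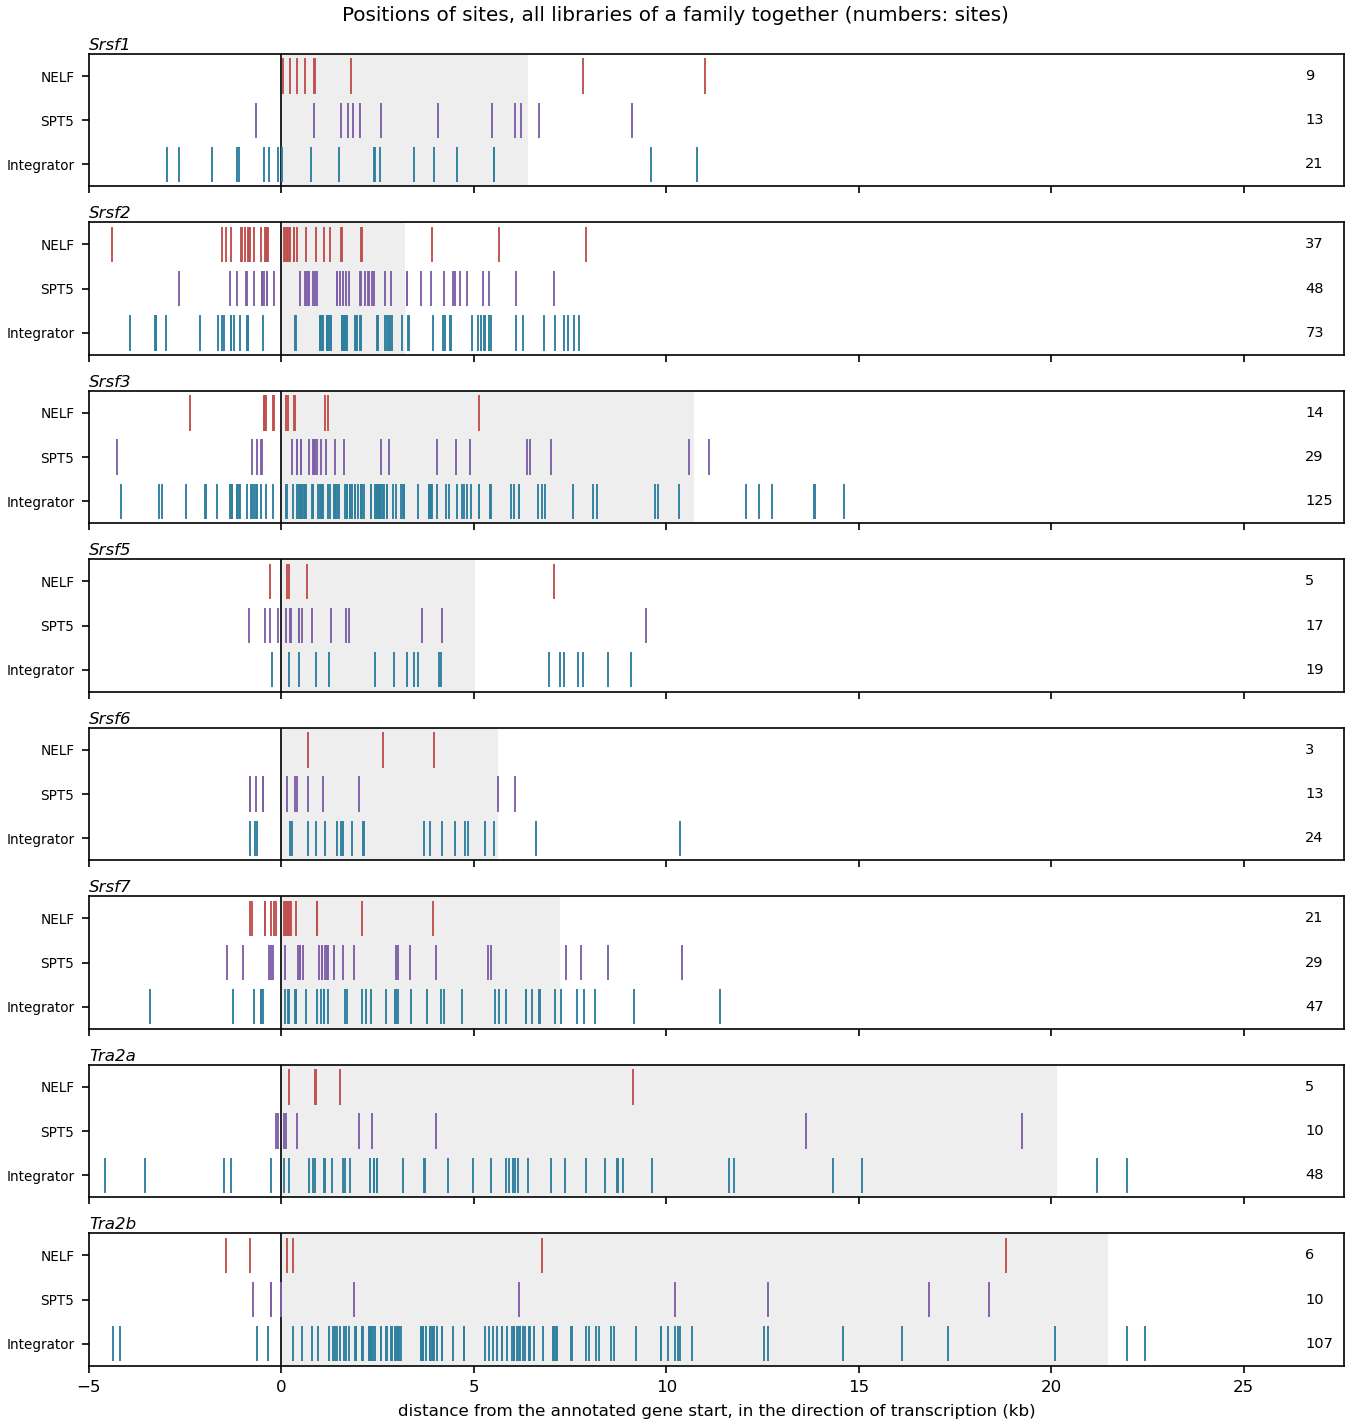
Each line is 1 integration site, by its distance from the annotated gene start in kb (x axis, direction of transcription), with the gene model shaded and the libraries of a family together in a row. NELF lines cluster around 0 at Srsf2 and Srsf7, while Integrator lines fill the first 10 kb of Tra2b, where 97 of 107 lie in the body.

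Gene bodies took 18.7% ± 3.36 of the member sites in NELF, 33.7% in SPT5 and 52.1% ± 13.2 in Integrator, from 33.3% in INIP to 69.9% in NABP2, and the NELF and Integrator libraries did not overlap. The comparison genes had 25.5% ± 4.18, 30.0% and 40.2% ± 2.60, and bodies make up 39.9% of the members' window length. At the comparison genes the NELF libraries (22.0% in NELFCD to 31.2% in NELFE) and the Integrator libraries (37.3% in INTS11 to 44.7% in NABP2) did not overlap either. The contrast between these families in bodies is thus not particular to the SR genes. Per kb, Integrator libraries averaged 0.622 ± 0.459 sites per 100000 in bodies and 0.676 ± 0.318 at starts, so bodies were not denser. NABP2 alone was denser in bodies, with 1.28 against 0.708. In Tra2b, which held the most Integrator body sites, 2 of 6 NELF sites, 6 of 10 SPT5 sites and 97 of 107 Integrator sites lay in the body. NABP1 alone had 46 sites there and NABP2 30, or 24.4 and 34.0 per 100000. In Srsf3 the body held 3 of 14 NELF sites, 12 of 29 SPT5 sites and 74 of 125 Integrator sites. In Srsf7 it held 2 of 21, 14 of 29 and 21 of 47 sites, so that SPT5, with 17.1 per 100000, lay above all Integrator libraries (0 to 5.31).

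In 500-base steps, NELF sites at Srsf7 and Srsf2 were most frequent in the first 500 bases of the gene, with 7.996 and 8.12 sites per 100000 (10 sites each, from 3 of the 4 libraries). The leading SPT5 step differed between genes: it lay at 500 to 999 bases in Srsf3 (7 sites), at 1000 to 1499 bases in Srsf7 (6 sites), in the first 500 bases of Srsf5 (5 sites) and Tra2a (3 sites), and in the 500 bases before the start of Tra2b (3 sites). For Tra2b the leading Integrator step was 6000 to 6499 bases, with 12 sites from 4 libraries, and the next was 2000 to 2499 bases, with 10. Srsf2 had its leading Integrator step at 1000 to 1499 bases, with 10 sites from 5 libraries.

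**Figure D4:**
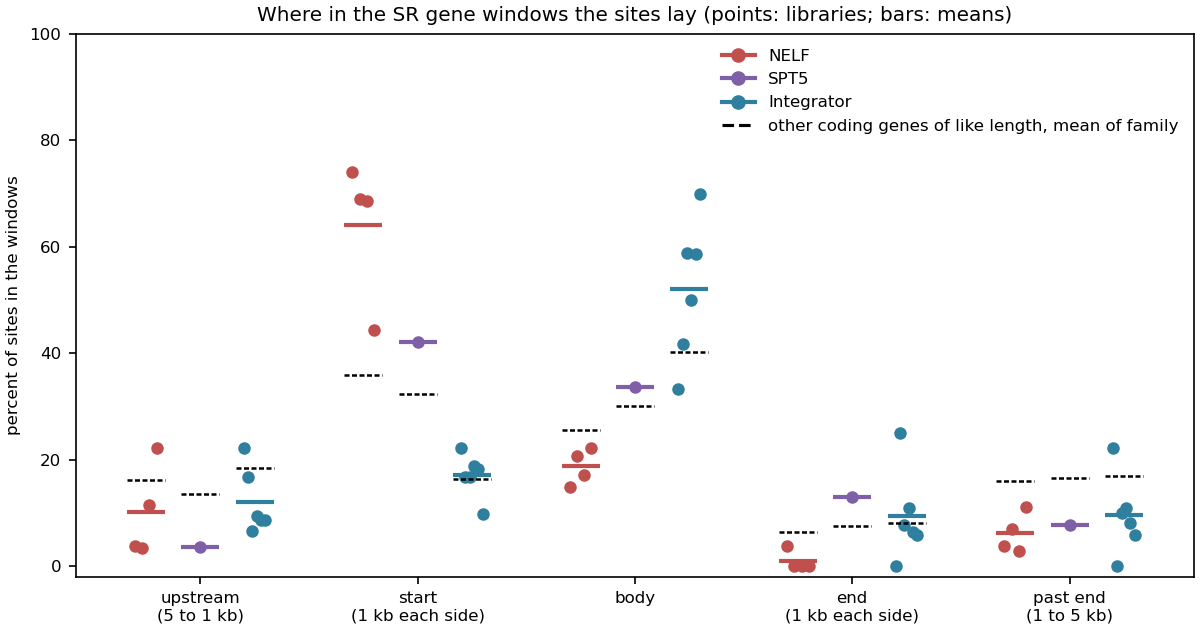
Share of the SR gene sites in each zone of the window (y axis, percent; points are libraries, coloured bars family means, dashed lines the family mean for 8656 other coding genes of like length). At the start NELF libraries lie at 44.4 to 74.1% and Integrator libraries at 9.71 to 22.2%; in the body the order is turned round.

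At gene ends the pooled NELF libraries had few sites. Within 1 kb of an end NELF libraries had 1 of 100 sites (1%, exact interval 0.0253 to 5.45%), in NELFA at Srsf2. SPT5 had 22 of 169 (13.0%, 8.34 to 19.0%), and Integrator had 35 of 464 (7.54%, 5.31 to 10.3%), from 0 of 9 in INIP to 3 of 12 in INTS11. For the comparison genes the shares were 6.36% ± 0.707 in NELF, 7.53% in SPT5 and 8.14% ± 0.465 in Integrator. Over all 8 genes the pooled NELF interval lies below its comparison value and the SPT5 interval above its own. Pooling treats the sites of the NELF libraries as 1 sample. Taken singly, the interval of every NELF library covers its own comparison value, the narrowest being that of NELFCD (0 to 10.003% against 5.92%). Of the 22 SPT5 sites 10 were at Srsf2, where the end lies inside 1110005A03Rik. Without Srsf2 the share was 9.92% (12 of 121, 5.23 to 16.7%) and without Srsf1 it was 11.5% (6.98 to 17.6%), and both intervals cover the comparison value. Without Srsf7 the pooled NELF interval, 0.032 to 6.85%, covers its comparison value too.

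In the wider end zone of the fit, from 1 kb before to 5 kb past the end, Srsf2 was the sole member with enough sites. It had 3.32, 3.23, 0 and 5.33 sites per 100000 in NELFA, NELFB, NELFCD and NELFE, 23.2 in SPT5 (19 sites) and 0 to 8.31 in Integrator. The difference of 0.0023 (SE 0.863) had an adjusted p of 0.998 (limma), where 124 of 621 ends passed (20%; 114 higher in NELF, 18.4%, and 10 lower, 1.61%). SPT5 was above all others there, as at 35.9% of ends tested. Past the end, from 1 to 5 kb, the SR windows held 6.14% ± 3.74 of the NELF sites, 7.69% of the SPT5 sites and 9.51% ± 7.35 of the Integrator sites. The comparison genes, matched for length alone, had 16.1%, 16.5% and 16.9%.

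Sites took no side in orientation: 367 of 733 proviruses (50.1%, exact interval 46.4 to 53.7%) pointed in the direction of the gene. Of the sites inside gene models, 52.5% in NELF, 41.7% in SPT5 and 30.5% in Integrator lay in an annotated exon, and exons make up 40.7% of the models. That exon share ran from 15.2% in Tra2a to 92.7% in Srsf2, and the families differed in the genes that gave their sites. The Srsf2 window gave 37 of 100 NELF sites and 73 of 464 Integrator sites, and that of Tra2b gave 6 and 107. The parts of the zones and of this mix of genes in the exon difference were not tested. Of the 733 sites, 41 (5.59%) had the same position and strand in another library, against 1.33% over the series; Srsf2 had 15 of them and Tra2b 10.

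Genes of the same machinery were counted in the same fit. Of 22 other SR and SR-related genes 20 were tested, and none passed for NELF against Integrator (8 above and 12 below 0, median −0.42). Srsf10, a splicing repressor when dephosphorylated, averaged 12.2 ± 1.16 sites per 100000 in NELF, 19.5 in SPT5 and 16.8 ± 10.7 in Integrator. Son, a scaffold of nuclear speckles, averaged 16.9 ± 6.44, 21.9 and 10.7 ± 5.44, and Luc7l3, related to a U1 snRNP component of yeast, 5.80 ± 2.73, 6.09 and 18.3 ± 12.1. The SPT5 minus Integrator median was 0.29 over these 20 genes, against 1.997 over the 8 members.

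Of 11 genes for SR protein kinases and import factors, 10 were tested and none passed (5 above and 5 below 0, median −0.06). Dyrk1a, a kinase of splicing factors, averaged 11.7 ± 5.72 in NELF, 21.9 in SPT5 and 30.7 ± 14.6 in Integrator, with a difference of −1.40 (SE 0.428, adjusted p = 0.112, limma). Srpk1 and Srpk2, which phosphorylate SR proteins in the cytoplasm, averaged 11.5 ± 5.75 and 9.82 ± 5.07 in NELF, 15.8 and 7.31 in SPT5, and 10.7 ± 5.71 and 10.3 ± 5.57 in Integrator. Of 32 hnRNP and other splicing regulator genes 30 were tested and none passed (14 above and 16 below 0, median −0.14). Ptbp1, which represses exons at pyrimidine tracts, averaged 24.7 ± 12.6 in NELF, 45.1 in SPT5 and 21.6 ± 18.4 in Integrator. Mbnl2, of the muscleblind family, averaged 19.2 ± 9.20, 18.3 and 23.7 ± 12.5, and Hnrnpl, which binds CA repeats, 27.9 ± 16.5, 25.6 and 8.43 ± 3.29 (difference 1.51, SE 0.446, adjusted p = 0.101, limma). The SPT5 minus Integrator median of these 30 genes was 1.09.

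The mean of the 8 members on the log2 scale was highest in SPT5, at 4.54, followed by NABP2 (3.51), NABP1 (3.37), NELFA (3.31) and INTS3 (3.28), and lowest in INIP, at 1.71. Among 1219 other genes with a mean of at least 10 sites, those whose values over the 11 libraries were most like this mean were Mef2d (Pearson r = 0.891), Snhg9 (0.890), Snora78 (0.890), Gm16736 (0.889) and Bop1 (0.886). Snora78 lies in the window of Snhg9, so the sites of both are the same. The 11 points of each correlation are the same libraries, which differ in depth, and the values are a description. Mef2d had 16.6, 16.1, 19.4 and 5.33 sites per 100000 in NELFA, NELFB, NELFCD and NELFE, 25.6 in SPT5 and 4.01 (INIP) to 18.0 (NABP1) in Integrator.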

How the data were processed

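Junctions between the HIV LTR and genomic DNA were amplified by linker-mediated PCR and sequenced in pairs, per the labels' protocols. The authors deposited, per the file headers, 1 list of genome positions per library with the first genomic base after the LTR and its strand, in mm9; these positions are neither counts nor another scaled value. The aligner is not given in the sources used here.

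Entries with the same chromosome, position and strand were taken as 1 distinct site (831994 sites from 873534 entries, 733 sites from 774 in the SR windows). Gene models came from GENCODE vM1 on NCBIM37, the assembly known as mm9, and sequences from that assembly. Sites were divided by the library's total and given per 100000. Differences were fitted with limma 3.58.1 (R 4.3.3; trend and robust) on log2(sites per 100000 + 1) in all 11 libraries with 3 family levels, for all genes but pseudogenes that averaged 3 or more sites in a library, and adjusted by Benjamini-Hochberg at 0.05. A pseudocount of 1 understates the change of genes with few sites. The fit was tested on simulated data. Counting intervals are exact at 95%, also for a count of 0.

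The 8 members, the other gene lists and the zones were chosen with earlier results of these data known. All members are named; of each other list the text names the 3 genes with the most sites and any that passed, and the 5 genes most like the members are those with the highest Pearson correlation. Alternatives changed the pseudocount, filter, scaling, weights, window, collapse of sites and libraries.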

Additional observations from a re-analysis of the deposited data

Results flagged for a closer look

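Of 34 groups of 4 or 6 libraries examined, 2 had a value far from the rest of its group by Dixon's criterion. A rate of 1 in 20, or 1.7 groups, would hold for independent groups of normally distributed values. The groups here overlap and many rest on few sites, so that rate is a rough guide only. In both flagged groups the other 3 libraries were at 0, where any value above 0 meets the criterion. Tra2a had 16.6 sites per 100000 in NELFA (5 sites) and 0 in NELFB, NELFCD and NELFE. The share of SR gene sites within 1 kb of an end was 3.70% in NELFA, from 1 site, and 0% in the other 3 NELF libraries.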

How the results depend on the processing

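For NELF against Integrator, 126 genes passed over windows, against 328 with voom weights (304 higher and 24 lower in NELF, against 104 and 22) and 27 in the gene model alone (14 higher, 13 lower). At starts 216 passed, against 94 with no filter on low values and 11 with median centring (4 higher, 7 lower). At ends 124 passed, against 27 with a minimum mean of 10 sites, 41 with no filter and 81 with median centring (38 higher, 43 lower). For SPT5 against Integrator 15 passed with no filter and 623 with voom weights, and for SPT5 against NELF 1 with voom weights. Median centring moved the SPT5 minus Integrator median of all genes to −0.01 from 0.39. Leaving out each NELF or Integrator library gave 88 to 116 genes over windows, 157 to 291 at starts, 84 to 130 at ends, and 0 for both SPT5 comparisons.

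Among members, signs turned for Tra2b in SPT5 against Integrator in the gene model alone (−0.075) and with single libraries left out (−0.11 to 0.92), for Srsf5 in NELF against Integrator (−0.21 to 0.77), for Srsf3 at the start with median centring (−1.33), and for Srsf2 at the end with a pseudocount of 2 (−0.054), median centring (−1.04), all entries (−0.016) and libraries left out (−0.34 to 0.57). None of these passed in any setting. Sites per 100000 over the 8 genes were 35.3 in NELF and 134 in SPT5 without sites near another coding gene, 48.2 and 132 in the gene model alone, and, in a choice made after seeing the data, 49.6 and 147 without Srsf2. Libraries left out gave 74.2 to 89.4 in NELF and 59.2 to 76.1 in Integrator. The share at starts was 45.3% in NELF, 22.5% in SPT5 and 8.01% in Integrator within 500 bases, and 60.7 to 70.5% in NELF and 16.0 to 18.5% in Integrator with libraries left out. The causes were not tested, beyond that smaller zones hold fewer sites and that stricter filters leave fewer genes. A minimum mean of 10 sites left too few starts to be run. Apart from these and from the Srsf2, Srsf7 and voom calls given in the report, all values under the settings run, coding genes alone and no shared positions included, kept their direction and side of the threshold or moved by less than the spread. No paired analysis was possible because the replicate numbers only name the samples. Depth limits most single values: NELF libraries had 1 to 16 sites in most windows, and 1 site in NELFE is worth 5.33 per 100000.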
